A study of Mus musculus with 3 samples.

Results

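The small nucleolar RNAs (snoRNAs) and small Cajal body RNAs (scaRNAs) described here are the genes whose symbol starts with Snord, Snora or Scarna followed by a number. The rule used the symbols in the transcript names and found 150 of the 55536 annotated genes, of which 99 were Snord, 42 Snora and 9 Scarna genes. The annotation types 142 of them as snoRNA, 7 as scaRNA and 1, Snord43, as miRNA. All but Snord43 are among the 1558 genes annotated as snoRNA or scaRNA. The other 1409 carry predicted-gene and other names, were not chosen, and held 0.491, 0.267 and 0.170% of the counts and 33.5, 29.0 and 26.4% of the TPM, the level per length, in replicates 1, 2 and 3.

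RNA was measured in a single group of 3 libraries from bone-marrow-derived macrophages (BMDM), primary cells of mouse strain C57BL/6J, stimulated for 20 min. The stimulus was Lipid A at 100 ng/ml, which is the lipid anchor of the lipopolysaccharide of bacteria and is sensed by the receptor TLR4. Each library was made from total RNA of the chromatin fraction, depleted of ribosomal RNA. This fraction holds RNA bound to chromatin, of which RNA being made on its gene is only a part. Replicate 1 started from 1000 ng of RNA, replicate 2 from 250 ng and replicate 3 from 500 ng. The labels give no age, no sex and no untreated group, so the values below are levels and not responses to Lipid A. Each library has its own biosample, but all point to 1 donor entry, and it is not stated whether separate animals were used. The spread between libraries may therefore be technical.

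Box C/D snoRNAs, most with Snord symbols, pair with ribosomal RNA and guide the methylation of ribose by the enzyme fibrillarin. Box H/ACA snoRNAs, with Snora symbols, guide the change of uridine to pseudouridine by the enzyme dyskerin. ScaRNAs hold boxes of either or both kinds, gather in Cajal bodies and guide the same changes in the small nuclear RNAs of the spliceosome. In mammals most of these RNAs lie in introns of other genes and are cut out of the host transcript after splicing. In these tables, reads of a mature snoRNA and reads of unspliced host RNA over the same bases cannot be told apart.

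The sequences of the members on which the results turn are given here 5′ to 3′, from the GENCODE M21 transcripts on GRCm38, with the matched boxes in capitals. For box C/D genes the capitals mark box C (TGATGA, first match within the first 25 bases) and box D (CTGA, last match within the last 25 bases). For box H/ACA genes they mark the first ANANNA that starts after base 40 and ends by base 100, the pattern of the H box, and the last ACA within the last 10 bases. The first set holds the Snord genes with the highest counts, and Snord21, Snord14c and Snord14d, which were listed at 0 in the gene tables and had counts in the second set of tables. Snord118, known as U8, has a box D match at its very end.
Snord17 (chr2:144265979-144266216, minus strand, 238 bases): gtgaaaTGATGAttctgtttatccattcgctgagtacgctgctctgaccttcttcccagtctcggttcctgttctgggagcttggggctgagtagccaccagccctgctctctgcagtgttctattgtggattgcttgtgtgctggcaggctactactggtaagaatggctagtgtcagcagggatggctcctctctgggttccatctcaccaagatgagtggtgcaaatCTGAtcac
Snord15b (chr7:99479563-99479707, minus strand, 145 bases): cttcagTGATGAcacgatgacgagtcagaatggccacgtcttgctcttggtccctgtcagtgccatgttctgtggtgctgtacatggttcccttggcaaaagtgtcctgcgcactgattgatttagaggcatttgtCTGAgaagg
Snord15a (chr7:99482785-99482932, minus strand, 148 bases): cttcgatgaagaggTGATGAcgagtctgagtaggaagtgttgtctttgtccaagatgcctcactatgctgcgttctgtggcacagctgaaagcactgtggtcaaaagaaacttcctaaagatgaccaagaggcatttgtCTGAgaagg
Snord22 (chr19:8725866-8725991, plus strand, 126 bases): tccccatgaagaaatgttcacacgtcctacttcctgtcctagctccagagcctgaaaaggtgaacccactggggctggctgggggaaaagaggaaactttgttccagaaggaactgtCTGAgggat
Snord21 (chr5:107904555-107904648, plus strand, 94 bases): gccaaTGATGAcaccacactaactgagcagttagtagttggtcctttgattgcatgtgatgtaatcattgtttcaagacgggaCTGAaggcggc
Snord14c (chr9:40803583-40803668, plus strand, 86 bases): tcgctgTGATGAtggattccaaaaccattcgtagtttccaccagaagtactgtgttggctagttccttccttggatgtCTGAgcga
Snord14d (chr9:40803995-40804080, plus strand, 86 bases): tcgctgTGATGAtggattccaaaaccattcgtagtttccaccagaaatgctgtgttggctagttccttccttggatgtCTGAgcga
Snord118 (chr11:69073427-69073561, plus strand, 135 bases): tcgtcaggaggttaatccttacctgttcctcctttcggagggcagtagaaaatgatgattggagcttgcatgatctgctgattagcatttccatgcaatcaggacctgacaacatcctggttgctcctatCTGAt
The Snora genes shown next start with the near-identical pair with the highest counts of the class. Snora70 differed strongly between libraries. Snora21 had the lowest p among members in the main edgeR test of a slope on starting RNA, though not in the other settings. The count of Snora31 depended most on the quantification.
Snora73b (chr4:132352322-132352526, minus strand, 205 bases): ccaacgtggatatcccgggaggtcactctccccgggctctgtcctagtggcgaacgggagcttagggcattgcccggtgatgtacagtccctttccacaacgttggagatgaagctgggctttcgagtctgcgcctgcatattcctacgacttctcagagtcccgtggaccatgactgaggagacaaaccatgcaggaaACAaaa
Snora73a (chr4:132352775-132352979, minus strand, 205 bases): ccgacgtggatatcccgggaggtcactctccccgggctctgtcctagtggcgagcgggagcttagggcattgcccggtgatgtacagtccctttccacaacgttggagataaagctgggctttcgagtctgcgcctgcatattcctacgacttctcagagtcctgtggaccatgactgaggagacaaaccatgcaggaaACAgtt
Snora70 (chrX:74272484-74272620, plus strand, 137 bases): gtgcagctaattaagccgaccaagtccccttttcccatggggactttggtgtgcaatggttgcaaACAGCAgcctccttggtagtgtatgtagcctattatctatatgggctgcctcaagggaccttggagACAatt
Snora21 (chr11:97781639-97781775, minus strand, 137 bases): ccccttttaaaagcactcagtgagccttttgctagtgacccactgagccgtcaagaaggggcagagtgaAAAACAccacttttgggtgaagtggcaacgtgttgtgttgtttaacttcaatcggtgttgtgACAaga
Snora31 (chr14:75847905-75848034, plus strand, 130 bases): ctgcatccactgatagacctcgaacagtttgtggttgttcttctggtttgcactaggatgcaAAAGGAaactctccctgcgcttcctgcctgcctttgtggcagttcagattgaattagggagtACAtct
The 3 Scarna genes that follow hold a C/D pair in 2 cases and an H/ACA pair in Scarna13.
Scarna6 (chr1:87784556-87784820, plus strand, 265 bases): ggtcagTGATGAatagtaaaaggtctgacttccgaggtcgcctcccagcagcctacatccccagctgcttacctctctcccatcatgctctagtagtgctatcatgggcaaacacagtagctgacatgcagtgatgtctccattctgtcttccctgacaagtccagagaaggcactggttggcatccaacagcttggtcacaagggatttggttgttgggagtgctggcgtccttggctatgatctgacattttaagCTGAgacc
Scarna9 (chr9:15326264-15326333, minus strand, 70 bases): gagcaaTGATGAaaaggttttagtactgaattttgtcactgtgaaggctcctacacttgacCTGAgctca
Scarna13 (chr12:105031075-105031349, minus strand, 275 bases): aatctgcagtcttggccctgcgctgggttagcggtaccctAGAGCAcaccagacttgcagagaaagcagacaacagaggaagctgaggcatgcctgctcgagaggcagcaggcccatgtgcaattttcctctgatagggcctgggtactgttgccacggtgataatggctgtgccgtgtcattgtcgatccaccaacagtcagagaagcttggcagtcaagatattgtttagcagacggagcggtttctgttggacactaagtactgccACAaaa

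The boxes follow the class names with exceptions. Box C and box D were both matched in 69 of 99 Snord genes, in 0 of 42 Snora genes and in 4 of 9 Scarna genes, which is 69.7, 0 and 44.4%. The H box pattern and the ACA were both matched in 36 of 42 Snora genes, in 5 of 99 Snord genes and in 4 of 9 Scarna genes, which is 85.7, 5.05 and 44.4%. Among 3890 other short noncoding genes (annotated snRNA, miRNA and misc_RNA genes of 60 to 300 bases), 0.0257% held the C/D pair and 6.76% the H/ACA pair. The H box pattern is loose and was matched in 51.1% of those other genes, so most of the contrast rests on ACA, at 95.2% in Snora genes and 14.4% in the others. Only the strand of the gene was searched, and the letters of box D lie within many other sequences. Snord22 and Snord118 had no exact TGATGA in this window, and no match says only that these letters are not there. Snora73a and Snora73b had no ANANNA in the window searched, and were identical in 198 of 205 aligned columns, or 96.6%. Snord14c and Snord14d were identical in 84 of 86, or 97.7%, while Snord15a and Snord15b were identical in 101 of 154, or 65.6%. Reads of the near-identical pairs could be split between their members by either quantification, so their separate values are uncertain.

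Whether a member had a value in the gene tables went with its annotated length. The authors' gene tables give each gene an effective length, the number of positions at which a sequenced fragment of the library's size could start. It was 0 in every library for 94 of 99 Snord genes, 2 of 9 Scarna genes and 0 of 42 Snora genes. The longest member at 0 in replicate 1 was Snord67, with 111 bases, and in replicates 2 and 3 it was Snora26, with 121 bases. Above 0, effective lengths ran from 1.35 to 225 bases in replicate 1, from 1.08 to 173 in replicate 2 and from 1.01 to 174 in replicate 3. Of the 54, 53 and 53 members above 0 in replicates 1, 2 and 3, 44, 43 and 43 lay below 10 bases. In the second set of tables, made from the same libraries without an alignment file, no member had an effective length of 0, and the values ran from 13.2 to 234 bases.

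**Figure D1:**
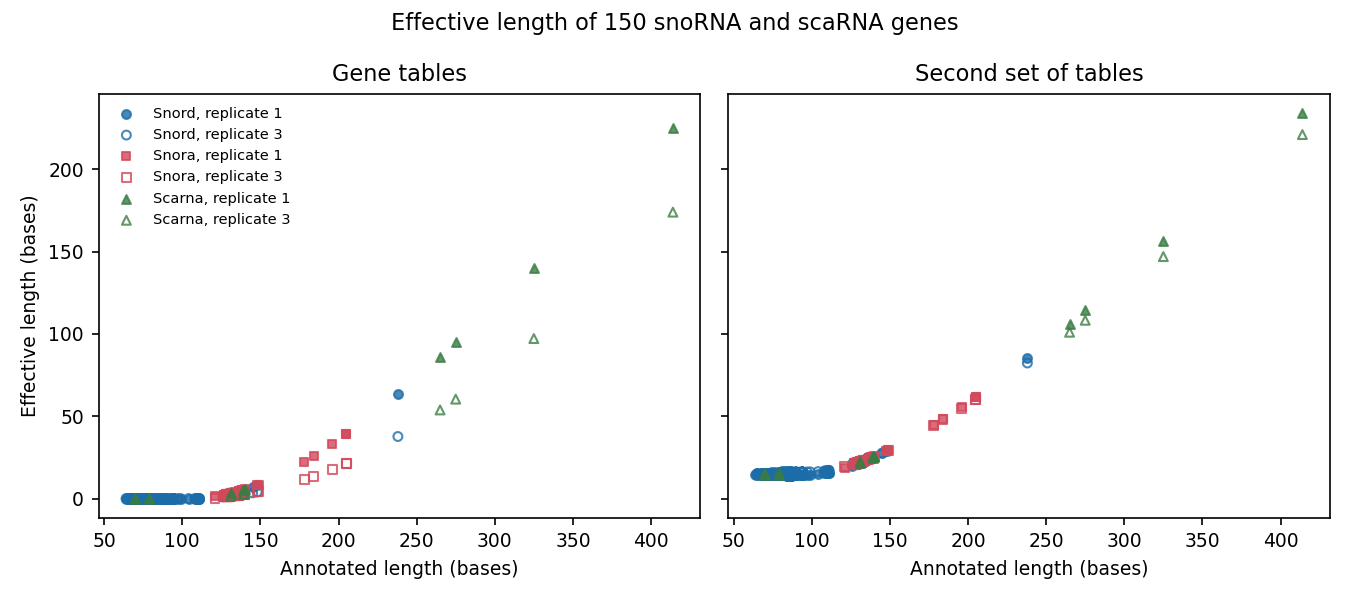
Effective length in bases against annotated length in bases for the 150 snoRNA and scaRNA genes, in the gene tables (left) and the second set of tables (right), with filled symbols for replicate 1 and open symbols for replicate 3. In the gene tables the Snord genes of up to 111 bases sit at 0, and replicate 1 lies above replicate 3 for the longer genes. In the second set of tables the lowest value shown is 13.7 bases, in replicate 1.

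Detection differed between the 2 sets of tables, most of all for Snord genes. A member was called detected with at least 10 counts in every library. By the gene tables, 4 of 99 Snord, 8 of 42 Snora and 4 of 9 Scarna genes were detected, 16 of 150 in all, and 107 members were listed at 0 in every library. Without replicate 3, 14 Snora genes were detected. The second set of tables had 35 Snord, 28 Snora and 7 Scarna genes detected, 70 in all, and 34 were listed at 0 in every library. Of the 55536 annotated genes, 13946 that are not members reached the same limit in the gene tables. In the second set 22577 did, so detection there was not particular to the members. Of the members of up to 100 bases, 0 of 89 were detected in the gene tables and 28 in the second set. Between 101 and 120 bases the counts were 0 and 4 of 7, between 121 and 150 bases 6 and 28 of 44, and above 150 bases 10 and 10 of 10. The 10 longest members held 83.0% of the members' expected counts in the gene tables. At an effective length of 0 only Snord8 in replicate 1 and Snora26 in replicates 2 and 3 had counts, and a listed 0 there is not read as a measured absence.

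Among the Snord genes, Snord17 had 12673, 5393 and 2525 expected counts in replicates 1, 2 and 3. Snord15b, which guides methylation of ribosomal RNA and lies within the ribosomal protein gene Rps3, had 11789, 2976 and 2088. Replicate 1 was the highest library for both, by a wide margin, and replicate 3 the lowest. Snord22, known as U22 and needed for processing of small-subunit ribosomal RNA, had 6156, 1986 and 882 expected counts. Snord15a, the second member in Rps3, had 2465, 908 and 536. These 4 genes held 99.98% of the class total in the gene tables. The class held 0.205, 0.0696 and 0.0486% of all counts in replicates 1, 2 and 3, a mean of 0.108% ± 0.0849 (SD, n = 3), or 0.0591% without replicate 1.

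Of the remaining Snord genes, 93 were listed at 0 in every library of the gene tables, and only 2 others had any count. Snord118, known as U8 and needed for maturation of large-subunit ribosomal RNA, had 7, 3 and 0 expected counts, and Snord8 had 1, 0 and 0. The second set of tables gave Snord118 196, 64 and 52 estimated counts and Snord8 28, 13 and 29. Replicate 1 was again the highest for Snord118, while for Snord8 replicate 2 was the lowest.

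Snord genes seen only in the second set of tables numbered 29, counted as detected there and at 0 in every library of the gene tables. The highest was Snord21, within the ribosomal protein gene Rpl5, with 997, 603 and 469 estimated counts. Snord83b, in Rpl3, had 159, 263 and 130, with replicate 2 the highest. Snord49b, in 2410006H16Rik, had 261, 176 and 66 estimated counts. Snord14d and Snord14c, members of the U14 family that is needed for processing of small-subunit ribosomal RNA, had 238, 158 and 92.8 and 166, 142 and 52.8, and both lie in the heat shock gene Hspa8. Because their sequences are almost the same, only their order among the libraries, which is the same for both, is read here. Snord13, known as U13, had 108, 38 and 25.

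The 4 Snord genes of Rpl13a are known in mouse cells for a part in the response to lipid and oxidative stress. All 4 were detected in the second set of tables and had a listed 0 with an effective length of 0 in the gene tables. Snord32a had 149, 179 and 111 estimated counts in replicates 1, 2 and 3. Snord34 had 54, 59 and 37, Snord33 had 36.5, 41.3 and 27.6, and Snord35a had 25, 32 and 22. The libraries differed less here than for the long Snord genes, with ratios of replicate 1 over replicate 3 in CPM of 1.13 for Snord32a, 1.22 for Snord34, 1.11 for Snord33 and 0.953 for Snord35a.

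The 17 Snord116 genes lie as a cluster in the host transcript Snhg14 on chromosome 7, a region imprinted in mammals. All 17 were listed at 0 in both sets of tables and all 3 libraries. The members are 94 bases long with an effective length of 0 in the gene tables, and 14 of them share 1 sequence, so that reads could not be given to a single copy. A count of 0 allows up to 3 counts in a library, or 0.186, 0.185 and 0.242 in CPM, the count divided by the total over genes and scaled, for replicates 1, 2 and 3, which covers counting error only and holds only where a fragment could be counted. Snhg14 itself had 5.87, 6.99 and 17.8 TPM, a level per length scaled to a fixed total over each table, and was highest in replicate 3. No gene with a Snord115 symbol was among the members.

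The Snora genes were led by Snora73b and Snora73a, known as U17 and needed for processing of small-subunit ribosomal RNA, both in the host gene Rcc1. Snora73b had 9473, 3852 and 1728 expected counts in replicates 1, 2 and 3, and Snora73a 7314, 4433 and 1445. Snora74a, known as U19, had 3629, 1157 and 686. All 3 were highest in replicate 1 and lowest in replicate 3. Snora68 had 557, 229 and 34.9 expected counts, and Snora26, in Dancr, 209, 41.0 and 29.0. Snora70, in Rpl10, had 204, 28.0 and 15.3, Snora81, in Eif4a2, 137, 77.2 and 41.4, and Snora23, in Ipo7, 92, 27 and 16. These 8 were the detected members of the class, and the 4 highest held 94.5% of its expected counts. The class held 0.139, 0.0621 and 0.0328% of all counts, a mean of 0.0780% ± 0.0549 (SD, n = 3), or 0.0474% without replicate 1.

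A further 23 Snora genes had some counts without being detected, and 11 were at 0 in every library. Snora5c, in Tbrg4, had 134, 32.5 and 8.85 expected counts and Snora7a, in Rpl32, 79.7, 21.8 and 9.89, so each missed the limit in replicate 3 only. Snora7a had 408, 225 and 108 estimated counts in the second set. The largest ratio between the quantifications, among Snora genes with counts in both, was that of Snora31, in Tpt1, with 3, 1 and 1 expected counts against 265, 264 and 212 estimated counts. Its effective length in the gene tables was 2.94, 1.48 and 1.39 bases, so it was not listed at 0. Snora30, in Srcap, had 3, 0 and 0 expected counts and 94, 70 and 61.7 estimated counts. By estimated counts Snora31 was nearly level over the libraries, whereas Snora68 had 763, 349 and 86.2 estimated counts.

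The Scarna genes were few but held the most counts. Scarna10, known as U85, which guides both kinds of change in the U5 small nuclear RNA, had 32314, 22014 and 14716 expected counts in replicates 1, 2 and 3. Scarna2, which guides methylation of the U2 small nuclear RNA, had 8090, 13426 and 4397. It was the only detected member of the gene tables that was highest in replicate 2. Scarna13, in the noncoding host Snhg10, had 2480, 1742 and 821 expected counts, and Scarna6, in Atg16l1, 1230, 826 and 517. Replicate 3 was the lowest library for all 4. The class held 0.273, 0.235 and 0.165% of all counts, a mean of 0.224% ± 0.0549 (SD, n = 3), and Scarna10 alone made up 67.3% of it. Scarna10 shares exon bases with Ncapd2, the condensin subunit gene that hosts it, and with Gm28967, so reads could be divided among them.

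The other 5 Scarna genes were low or at 0 in the gene tables. Scarna3a had 4, 0 and 0 expected counts and Scarna8 0, 1 and 0. By the second set, Scarna17 had 160, 76 and 43 estimated counts, Scarna9 39, 88 and 36, and Scarna3b 33, 27 and 18, and none of these 3 had a count in the gene tables. Scarna9 was highest in replicate 2, as Scarna2 was.

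**Figure D2:**
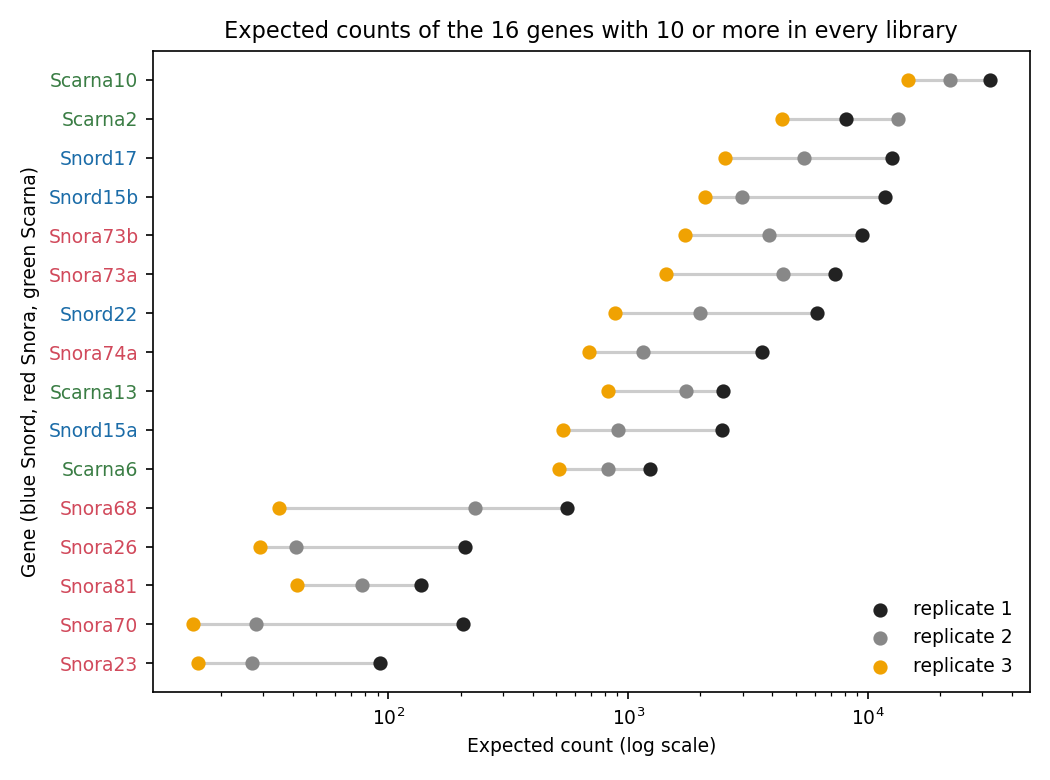
Expected counts on a log scale in replicates 1, 2 and 3 for the 16 members with at least 10 counts in every library, ordered by their mean, with a line from the lowest to the highest library. Replicate 1 is the highest library for all but Scarna2, and replicate 3 is the lowest for all 16.

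The order of the 3 classes turned on the unit. By expected counts the Scarna genes held the largest share in every library and the Snora genes the smallest. By TPM in the same tables, Snord genes held 18.1, 14.2 and 12.1% of each library's total in replicates 1, 2 and 3, Snora genes 4.11, 3.37 and 1.88%, and Scarna genes 1.11, 1.65 and 1.44%. The mean shares were 14.8% ± 3.05 for Snord, 3.12% ± 1.14 for Snora and 1.40% ± 0.272 for Scarna genes (SD, n = 3 for each). Among members that share no exon base with another gene, which leaves out Scarna10, the mean shares were lower, at 1.65, 0.908 and 0.291% of the TPM for Snord, Snora and Scarna genes, and at 0.0525, 0.0330 and 0.0618% of the counts. All 150 members together held 0.617, 0.366 and 0.246% of the counts and 23.3, 19.2 and 15.4% of the TPM. Wilson 95% intervals of the shares of counts were at most 3.07% of the share to either side, far less than the spread between libraries, and cover counting error only. In the second set of tables the Snord genes held 4.85, 1.84 and 1.78% of the TPM, the Snora genes 1.95, 0.878 and 0.633% and the Scarna genes 1.10, 0.901 and 0.809%.

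**Figure D3:**
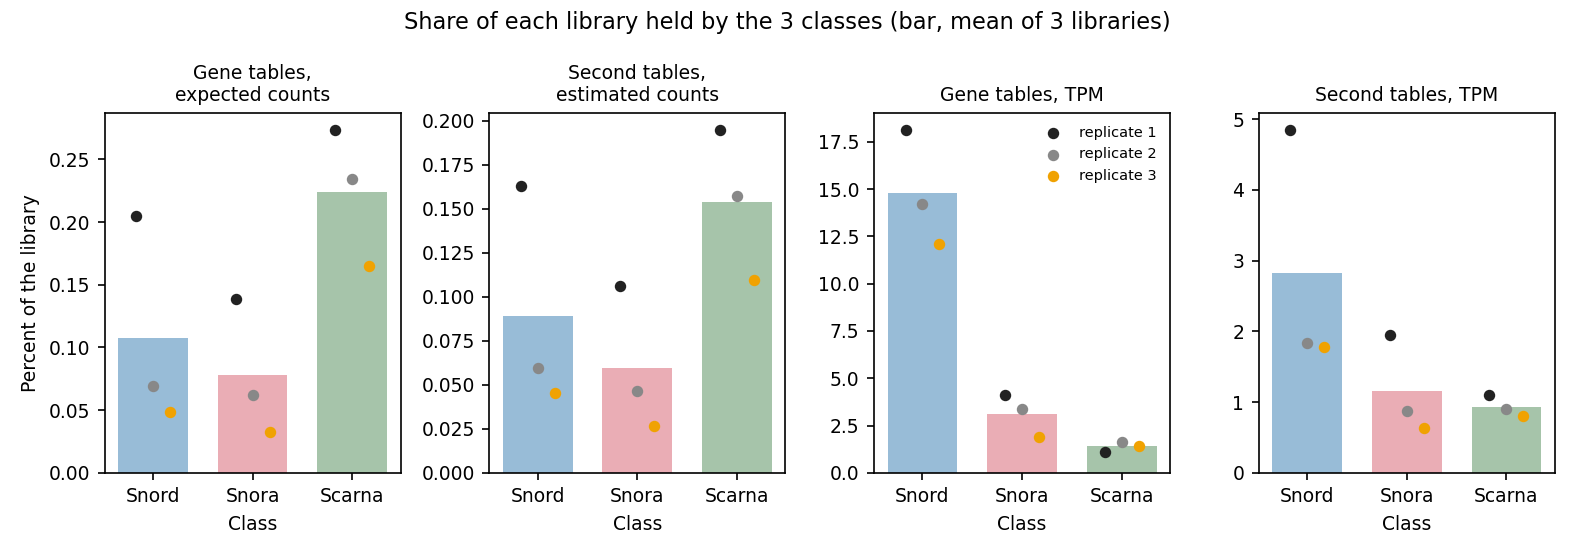
Share in percent of each library's expected counts, estimated counts and TPM held by the Snord, Snora and Scarna genes, in the gene tables and in the second set of tables, with the mean of 3 libraries as bars and the libraries as points. Scarna genes hold the largest share of counts in both sets of tables (means of 0.224 and 0.154%), and Snord genes the largest share of TPM (means of 14.8 and 2.82%).

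The 3 members with the highest TPM, Snord22, Snord15b and Snord15a, all had effective lengths below 10 bases. Snord22 had 103004, 86669 and 62750 TPM in replicates 1, 2 and 3, at effective lengths of 2.15, 1.08 and 1.01 bases. Snord15b had 59854, 38618 and 43654 TPM, at 7.08, 3.63 and 3.44 bases. Scarna10, with the most counts, had 8300, 10706 and 10906 TPM, at 140, 96.8 and 97.2 bases. For Scarna10 the TPM was thus lowest in replicate 1, where its count was highest. On average 1 expected count was worth 43.8 TPM for Snord22, 13.0 for Snord15b, 1.24 for Snord17, 0.495 for Scarna10 and 0.282 for Scarna2. Snora26 shows the limit of the scale, with 209 counts and 5558 TPM in replicate 1, where its effective length was 1.35 bases, and with 41.0 and 29.0 counts but a listed 0 TPM in replicates 2 and 3, where that length was 0.

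Levels per annotated length, in CPM per kilobase, gave another order. Scarna10 was the highest, at 6160, 4182 and 3652 CPM per kilobase in replicates 1, 2 and 3, and Snord15b followed with 5037, 1267 and 1161. Snord17 had 3299, 1399 and 856, and Snora73b 2863, 1160 and 680. Snord15b, Snord17, Snora73b, Snord22, Snora73a and Scarna2 followed each other with means from 2489 to 1357, and their ranges over the libraries overlapped. Snord22 was 5th by this scale and 1st by TPM, and Scarna2 was 7th by this scale and 10th by TPM. Across the 16 detected members, Spearman's rho of mean count and mean TPM was 0.67, given as a description over genes that share the same libraries.

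Differences between class medians were taken in each library over detected members, on the log2 scale with 0.1 added to each value. Snord lay above Snora genes by 4.66 ± 0.48 in expected counts, 3.63 ± 1.06 in TPM and 4.56 ± 0.46 in CPM per kilobase (SD, n = 3 libraries for each), in the same direction in all 3 libraries. Scarna lay above Snora genes by 4.85 ± 1.01 in expected counts and 3.60 ± 1.15 in CPM per kilobase, but the TPM difference was -0.25 ± 1.60, with replicate 1 at -2.09 and replicates 2 and 3 at 0.79 and 0.55, and 0.67 without replicate 1. Snord minus Scarna genes gave -0.18 ± 0.99 in expected counts (0.22 without replicate 2), 3.88 ± 0.69 in TPM and 0.96 ± 0.86 in CPM per kilobase. These medians rest on the 4 of 99, 8 of 42 and 4 of 9 members with at least 10 counts in every library. In the second set of tables, with 35, 28 and 7 detected members, Snord minus Snora genes gave -0.13 ± 0.86 in estimated counts and 0.81 ± 0.88 in CPM per kilobase, and Snord minus Scarna genes gave -2.22 ± 0.22 in CPM per kilobase (SD, n = 3 libraries). The sign of the difference between Snord and Scarna genes per length was thus not the same in the 2 sets of tables.

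For members detected in the gene tables, the quantifications ranked alike. Across these 16 members Spearman's rho of the mean counts in the 2 sets was 0.98. Estimated over expected counts, both as library means, were 1.07 for Scarna10, 1.09 for Snord15b, 1.10 for Scarna13 and 1.30 for Snord22. Some members not detected there had larger ratios, of 6.66 for Snora7a, 31.2 for Snord118 and 148 for Snora31, of 140, 135 and 130 bases. Annotated length did not separate these from the members with a ratio near 1, since Snord15b has 145 bases and Snord22 126, and Snord15a, with 148 bases, and Snora26, with 121, had ratios of 1.17 and 1.23.

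**Figure D4:**
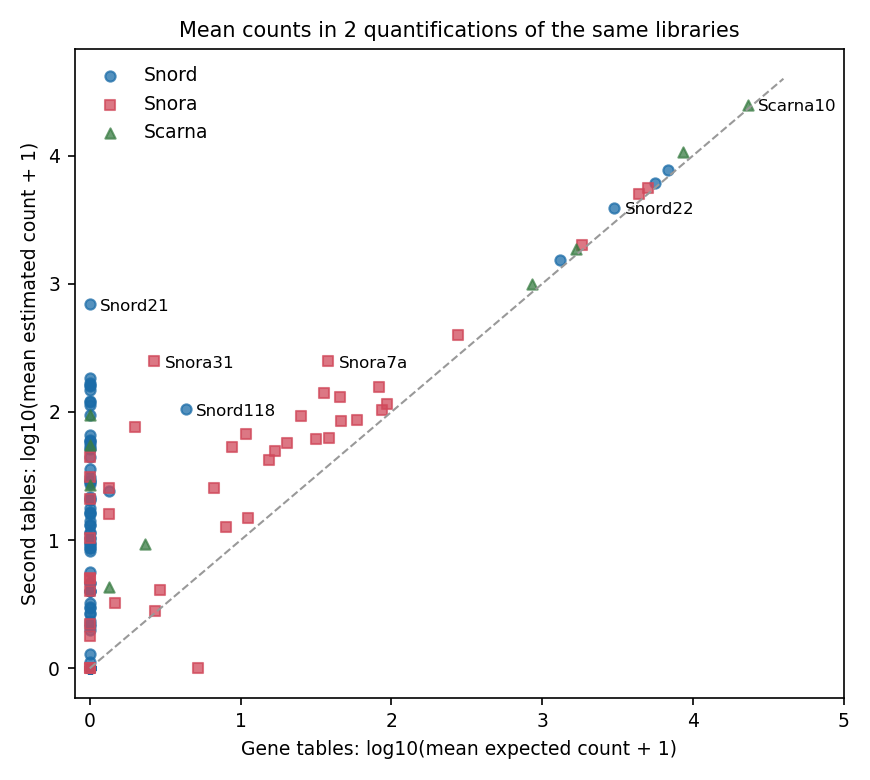
Mean count of each member over 3 libraries in the second set of tables against that in the gene tables, as log10 of the mean plus 1, with a dashed line of equal values. Scarna10 and Snord22 lie near the line, while Snord21 stands at 0 in the gene tables, and Snora31, Snord118 and Snora7a lie above the line.

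Most members were higher in replicate 1. By gene tables, 15 of the 16 detected members had their highest CPM in replicate 1, and the median ratio of replicate 1 was 2.46 over replicate 2 and 3.98 over replicate 3. All 16 were lower in replicate 3 than in replicate 2, with a median ratio of replicate 2 over 3 of 1.42. For the 13946 other genes with as many counts, the medians were 1.19, 0.89 and 0.74, and 25.1% had their highest value in replicate 1. By class the median ratio of replicate 1 over replicate 3 was 4.10 for Snord, 4.31 for Snora and 1.76 for Scarna genes. The largest ratios of the highest to the lowest library among members with a mean of at least 50 counts were 12.3 in Snora68, 11.6 in Snora5c, 10.3 in Snora70, 5.54 in Snora26 and 5.36 in Snord22.

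The difference between libraries went with length and with class in the second set of tables. The 28 detected members of up to 100 bases had a median ratio of replicate 1 over 3 of 1.25, the 32 members of 101 to 150 bases one of 3.16 and the 10 longer ones one of 3.23. By class the median ratio of replicate 1 over 3 in the second set was 1.31 in 35 Snord, 3.90 in 28 Snora and 1.81 in 7 Scarna genes. Spearman's rho of this ratio with annotated length was 0.50 over the 70 members, which share the 3 libraries. In all, 54 of these 70, or 77.1%, were highest in replicate 1, 7 in replicate 2 and 9 in replicate 3, while 18.4% of 22577 other genes were highest in replicate 1.

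**Figure D5:**
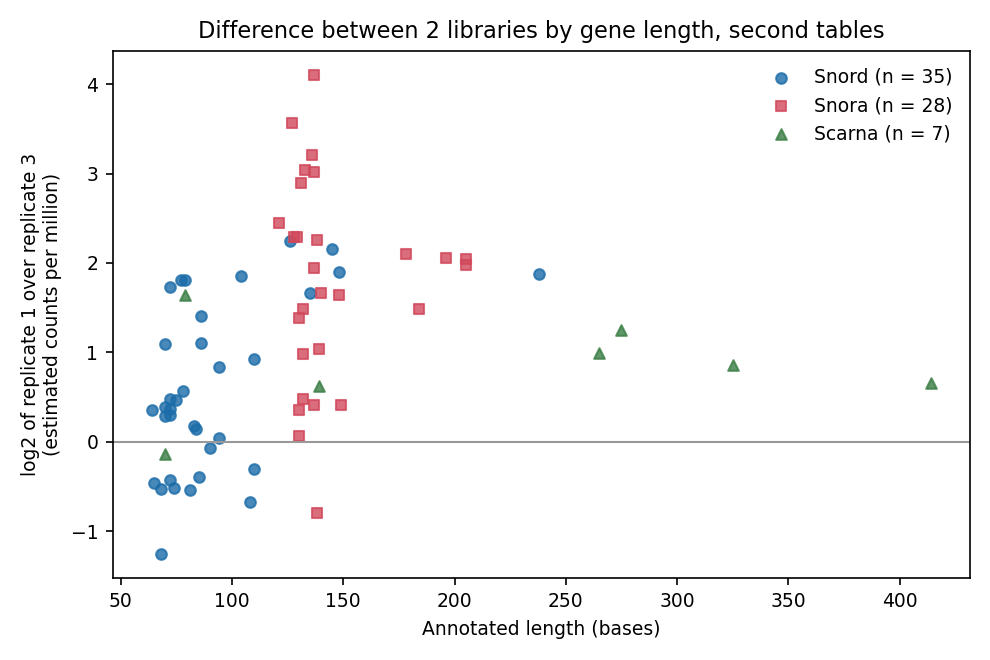
Ratio of replicate 1 over replicate 3 in CPM of estimated counts, on a log2 scale, against annotated length in bases, for the 70 members detected in the second set of tables. Snord genes of up to 100 bases scatter around a small positive value, and the Snora genes near 130 bases reach the largest ratios.

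Replicate 1 also had the shortest fragments and, in the gene tables, higher values of other short RNAs. The mean fragment length, read from annotated minus effective length of 2212 long genes, was 191, 248 and 248 bases in the gene tables and 187, 199 and 208 bases in the second set, for replicates 1, 2 and 3. The labels give the same library size range for all 3. In the gene tables, among 90 other genes with a single transcript of at most 300 bases, 85 were also highest in replicate 1, with median ratios of 2.76 over replicate 2 and 3.38 over replicate 3. Among 28 snRNA genes, the RNAs of the spliceosome, 27 were highest there, with medians of 5.02 and 3.41. The median of replicate 2 over replicate 3 was 0.96 in the 90 short genes and 0.72 in the snRNA genes, against 1.42 in the members. Of 39 other snoRNA or scaRNA genes 38 were highest in replicate 1, with medians of 2.59 over replicate 2 and 3.96 over replicate 3. Their median of replicate 2 over replicate 3 was 1.75. The second set of tables showed this less, over more genes that reached the count limit. Of 855 such short genes 277, or 32.4%, were highest in replicate 1, with medians of 1.21 and 0.84. Among all 22577 genes that are not members 18.4% were highest there, with medians of 1.17 and 0.82. Of 146 other snoRNA or scaRNA genes 81, or 55.5%, were highest in replicate 1, with medians of 1.54 and 1.14. Of 131 snRNA genes in that set 61, or 46.6%, were highest in replicate 1 and 64 in replicate 3, with medians of 1.40 and 0.93. The part of fragment size in the members' difference was not tested. Starting RNA and library cannot be told apart, since each amount was used once.

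A slope on the starting amount of RNA was the only contrast over libraries that the labels allow. Of 15065 genes that passed the filter on low counts, 88 were called by edgeR's quasi-likelihood test at an adjusted p below 0.05, or 0.584%, and 0 of the 23 members tested. At an unadjusted p below 0.05, 11 of these 23 members (47.8%) and 1017 of all genes (6.75%) passed in edgeR. In DESeq2 2 members and 455 genes passed, with 0 members and 86 genes after adjustment. DESeq2 gave no adjusted p to 3 of the 23 members, Snora21 among them, and to 3213 genes. The median slope was 0.60 per doubling for the members and 0.00 for all genes tested, and 22 of 23 members had a slope above 0. Members entered through their counts in the libraries where they were high, so these shares describe the 23 and not all 150. The lowest adjusted p among them in edgeR belonged to Snora21, in Rpl23, with 58, 7 and 8 expected counts and a slope of 1.55 ± 0.36 (SE, adjusted p = 0.0702). Snora70 followed with 1.42 ± 0.34 (SE, edgeR, adjusted p = 0.0744), and Scarna2 had the only negative slope, -0.49 ± 0.23 (SE, edgeR, adjusted p = 0.738).

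The count of members called depended on the settings of this test. With DESeq2's size factors in edgeR, which called 0.85% of all genes, 3 of 23 members passed, all with a positive slope, namely Snora26, Snora21 and Snora70. Without a filter on low counts, where 1.17% of 24261 genes passed, 11 of 43 members did, again all positive. In the second set of tables, where 0.66% of 23931 genes passed, 2 of 77 members did, Snora21 and Snora34. A straight line described the members poorly: without replicate 1 their median slope was -1.03, because replicate 2, with the least RNA, lay above replicate 3, and without replicate 2 it was 2.23. Those values have no test, since no residual degree of freedom is left with 2 libraries.

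Library-to-library variation was larger in most of the members tested in the gene tables than in most genes. The tagwise coefficient of variation of edgeR had a median of 0.43 over 19 members tested and of 0.20 over 13985 genes, of which the middle 90% lay between 0.168 and 0.304. By class it was 0.44 in 4 Snord, 0.47 in 11 Snora and 0.28 in 4 Scarna genes, and 16 of the 19 lay above 0.304. Medians in the second set of tables were 0.23 in 36 Snord, 0.41 in 28 Snora and 0.31 in 7 Scarna genes, against 0.19 over 22432 genes. The middle 90% of those genes lay between 0.162 and 0.276. Above 0.276 lay 37 of the 71 members, with 12 of 36 Snord, 21 of 28 Snora and 4 of 7 Scarna genes. The highest value in either set was that of Snora70, at 0.68. Scarna6 had 0.25 in the gene tables, among the lowest of the members.

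The hosts were described next. The annotation places 141 members within 90 host genes on the same strand, 96 Snord, 38 Snora and 7 Scarna genes. Protein-coding genes host 92 of them and other types of gene 49, and 33 members lie in ribosomal protein genes. The members without a host include Scarna2, Snord118, Snord13, Snord104 and Scarna17. Detected in the second set of tables were 48 of 92 members in protein-coding hosts, or 52.2%, 14 of the 49 in other hosts, or 28.6%, and 8 of the 9 without a host. Leaving out the 17 Snord116 copies, the share for other hosts was 14 of 32, or 43.8%. In ribosomal protein hosts it was 18 of 33, or 54.5%.

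Members of the same host stood at different levels. The noncoding host Snhg12 held 5 members, down to a mean of 0 estimated counts for a copy of Snora16a. Snora44 had 114, 36.1 and 19.6 estimated counts and Snora61 52.1, 55.7 and 16.7, so that Snora44 was above Snora61 in replicates 1 and 3 and below it in replicate 2. Gas5, a noncoding growth arrest gene with 110 TPM, held 4, of which Snord47 was detected with 183, 52.8 and 43.8 estimated counts, and Snord78 was listed at 0. In Rps3 both members were detected, with 12706, 3358 and 2390 estimated counts for Snord15b and 2859, 1081 and 642 for Snord15a. In Nop58 neither of Snord70 and Snord11 was detected. Eif4a2, with 260 TPM the highest of the hosts that held more than 1 member, had Snora81 detected and Snord2 at 0.

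The level of a member was set beside that of its host. Across 15 detected members with a host, Spearman's rho of CPM per kilobase and host TPM was -0.21, and across 62 in the second set of tables it was -0.08. These are descriptions over genes in the same libraries, and 73 of the 150 members share exon bases with another gene, so part of their reads may have been assigned to it. Of the 150, 72 have their whole sequence within a transcript of another gene. Among members that share no exon base rho was 0.11 over 32, and among those that do -0.19 over 30. Snora73b shows how far apart the levels can lie, at 8707, 8224 and 5781 TPM in replicates 1, 2 and 3 in a host with a mean of 3.60 TPM. Its short effective length, of 39.1, 22.1 and 21.5 bases, raises its TPM. By mean expected count Snora73b had 5018 and its host 78.0.

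Genes of the proteins that bind and build these RNAs were measured from a list of 24. Of these, 21 had at least 1 TPM in every library, while Nop10, Naf1 and Znhit3 did not, and the median of the list was 3.54 TPM. Fibrillarin, Fbl, the box C/D methylase, had 5.98, 13.0 and 15.0 TPM in replicates 1, 2 and 3. Its partners Nop56 and Nop58 had 16.8, 25.03 and 34.1 TPM and 7.26, 12.0 and 15.4 TPM. These 3 were lowest in replicate 1, where the snoRNA and scaRNA genes described here held 23.3% of the TPM, against 19.2 and 15.4% in replicates 2 and 3. All 1558 annotated snoRNA and scaRNA genes held 56.8, 48.3 and 41.8% of that total. Whether these shares bear on the TPM of Fbl, Nop56 and Nop58 was not tested. Dyskerin, Dkc1, the H/ACA pseudouridine synthase, had 5.25, 5.65 and 12.4 TPM, and its partner Nop10 was the lowest gene of the list, at 0.363 ± 0.116 TPM (SD, n = 3). Tgs1, which modifies the cap of some of these RNAs, had 16.1, 13.1 and 32.6 TPM, and Coil, the coilin of Cajal bodies, 1.27, 1.43 and 3.01 TPM. Of the 23 that could be tested for a slope on starting RNA, 0 passed in edgeR after adjustment, where 0.584% of all genes did, and 1, Nhp2, had an unadjusted p below 0.05. DESeq2 called 0 of the 23, also before adjustment. Their median slope was -0.16, against 0.00 for all genes tested.

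The library totals over genes were 16141381, 16196661 and 12398651 expected counts for replicates 1, 2 and 3, and 25111219, 27695628 and 21058255 estimated counts by the second quantification. Entries that name no gene held 1.08, 0.299 and 0.332% of the expected counts. The macrophage label was checked against 6 markers, which all reached 1 TPM in every library, with means from 13.9 to 171 TPM. The 11 markers of T cells, B cells, neutrophils, erythroid cells and fibroblasts had means of at most 0.297 TPM, and 5 of them were at 0 in every library. The second set of tables gave Cd3d, a T cell gene among those 5, 13.1 TPM in the mean, Col1a1 1.57 TPM, Mpo 1.21 TPM and the other 8 at most 0.288 TPM, against 22.6 to 307 TPM for the macrophage markers. In the gene tables the sum of the 11 was 0.46, 0.90 and 0.92 TPM in replicates 1, 2 and 3, against 493, 470 and 639 TPM for the macrophage markers.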

How the data were processed

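Total RNA of the chromatin fraction, depleted of ribosomal RNA, was quantified in 3 libraries of 1 group. Assembly mm10 and annotation M21 were used, per the labels and the file headers. The authors deposited gene tables with expected counts, TPM and effective lengths, and a second set of transcript tables with estimated counts and TPM, which were summed per gene here. Tool names and versions, and any use of strand, were not given in the sources used here. Whether reads of a gene and of its antisense partner were told apart is therefore not known. TPM, as the authors deposited it, divides by effective length, so lengths of a few bases raise it, and is scaled over the whole table.

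Genes were matched to GENCODE M21 on GRCm38 (chromosome positions 1-based). The members, lists and named genes were chosen with earlier results of these data known. The named genes were those with the highest mean expected count of each class, the highest TPM, the largest ratios between libraries and between the 2 sets of tables, and older U names. A host is the annotated gene on the same strand whose span holds the member, leaving out small RNA genes. Where several genes held a member, the gene with the most annotated transcripts was taken as its host. CPM divides by the total over genes. Entries that name no gene, 1.08, 0.299 and 0.332% of expected counts, were left out.

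Counts were rounded and tested in R 4.3.3 by edgeR 4.0.16, after filterByExpr and with normalization factors (TMM) of 1.02, 0.856 and 1.14. The fit had a slope on log2 starting RNA, an intercept and 1 residual degree of freedom, with Benjamini-Hochberg adjustment. The p-values measure scatter around that line, pooled in part over genes. On simulated data with the same dispersion for every gene, the slope test made 0 calls among 15065 genes without slopes. With slopes given to 200 genes it recovered 77% at a slope of 1 and 100% at 2, either way, with 11 other calls. The members varied more between libraries than most genes, so this does not measure how well the test finds their slopes. Alternatives covered the second set of tables, posterior mean columns, exon sharing, identical sequences, other limits, pseudocounts and summaries, DESeq2, its size factors, no filter and each replicate left out. DESeq2 1.42.0, Python 3.11.15, numpy 2.4.6, pandas 2.3.3, scipy 1.17.1 and matplotlib 3.10.9 were also used. Groups of 3 libraries were too small for an outlier test.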

Additional observations from a re-analysis of the deposited data

How the results depend on the processing

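Alternatives were the second set of tables, posterior mean columns, members that share no exon, 1 member per sequence, other limits and pseudocounts, all members in place of those detected, means in place of medians, the settings of the slope test and each replicate left out. Of the 122 alternative values of the main results, 91 kept their side or stayed within the spread and 31 did not. The number of detected members became 35 Snord, 28 Snora and 7 Scarna genes in the second set of tables. For Snora genes it was 22 with a limit of 1 count, 3 with a limit of 50, and between 8 and 14 with a replicate left out. The share of counts held by Scarna genes was 0.154% in the second set and 0.0618% among members that share no exon, which leaves out Scarna10. Those members gave Snord and Snora genes 0.0525 and 0.0330% of the counts, and the 3 classes 1.65, 0.908 and 0.291% of the TPM, each over 1.5 times below the value of all members. Over all members, so with those of few or no counts, the log2 differences of Snord minus Snora genes were -5.22 in counts, -9.61 in TPM and -4.29 per base, those of Scarna minus Snora genes -2.29, -4.20 and -2.05, and those of Snord minus Scarna genes -2.94, -5.42 and -2.25. In the second set of tables Snord minus Snora genes gave -0.13, 0.81 and 0.81, Scarna minus Snora genes 2.04 in TPM, and Snord minus Scarna genes -4.04, -1.24 and -2.22. With means of log2 values Snord minus Snora genes gave 3.36, 5.01 and 3.42 and Scarna minus Snora genes 1.49 in TPM. The cause of these shifts was not tested. Members called with a slope numbered 3 with DESeq2's size factors, 11 without a filter and 2 in the second set of tables, against 0. The slope of Snora61 was 0.23 and reversed to -0.10 in the second set, and neither passed. No paired analysis was possible because the libraries form 1 group. In the gene tables, at an effective length of 0, only 1 member in each library had counts, so a 0 there is not a limit that depth sets.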
